A study of Mus musculus with 8 samples.

Results

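The genes described are *Lgr4*, *Lgr5*, *Rnf43*, *Znrf3*, *Axin2*, *Nkd1*, *Tcf7*, *Lef1*, *Glul* and *Tbx3*, 10 genes of the Wnt/beta-catenin pathway and of liver zonation, chosen by name from the 23467 genes of the table. RNA was sequenced from hepatoblasts, the fetal progenitors of hepatocytes and biliary epithelial cells (BECs), grown from E14.5 livers of B6;129 mixed mice. Cultured hepatoblasts (iHBs) were compared with cells treated with Oncostatin M, a cytokine of hepatocyte maturation, at 12.5 ng per ml (iHPs), and with cells kept on Matrigel for 14 days to become BECs (iBECs). The Oncostatin M treatment lasted 5 days in the sample labels and 6 days in the methods of the study. Each stage had 1 wild type control library, and there were 1, 2 and 2 libraries of iHBs, iHPs and iBECs of the genotype Lats1-/-;Lats2f/fl;Alb-cre, called L1L2_Alb. In this genotype *Lats1* is absent from all cells of the mouse and *Lats2* is deleted where albumin-Cre is active, in the hepatoblast lineage. The cultures were started from digested whole livers, so that other liver cells could be carried over. The labels do not say that the libraries of a condition came from separate embryos, so the spread between these libraries may be technical. The p-values and intervals for genotype and for stage rest on this spread and on how far the genotype effect differed between the stages. A gene whose stages went in opposite directions thus has a wider interval.

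Wnt ligands bind Frizzled and LRP receptors at the cell surface, which stops the degradation of beta-catenin and lets it activate genes together with TCF/LEF factors in the nucleus. Several of these targets, among them *Axin2*, *Nkd1*, *Rnf43* and *Znrf3*, feed back and dampen the pathway, and are therefore widely read as its output. In the adult liver the pathway is active around the central vein, where it maintains the pericentral programme of hepatocytes that includes glutamine synthetase (*Glul*), while genes of gluconeogenesis and of the urea cycle are higher near the portal vein.

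Values are given as RPKM, that is, reads scaled for gene length and library size, and differences are on the log2(RPKM + 1) scale, which understates the change of genes of low level. Libraries held 18436865 to 33229075 reads. *Lats1* was above the control of its stage in 4 of the 5 libraries labelled L1L2_Alb, and below it in L1L2_Alb iHP 2, with 7.12 RPKM against 11.2 RPKM. *Lats2* was above it in all 5 (10.9 to 27.6 RPKM against 6.90 to 10.1 RPKM in the controls). The RNA of the deleted genes thus goes against the label in these libraries except for *Lats1* in L1L2_Alb iHP 2. However, a value per gene does not separate exons missing from the alleles from other exons. The paper, by contrast, reports reduced LATS1/2 expression in its cultured L1L2_Alb cells. Its text does not say there whether RNA or protein was measured, so the measures may differ. *Ctgf*, a target of YAP, was at 201 to 523 RPKM in the controls and at 412 to 2469 RPKM in the libraries labelled L1L2_Alb. Control iBEC held 62.3 RPKM of the BEC marker *Krt7* against 400 RPKM in control iHB, together with 6162 RPKM of *Alb* and 25.7 RPKM of *Tat*, both hepatocyte genes, and 23271 RPKM of *Spp1*, another BEC marker. The name iBEC is therefore used for the culture condition. In such bulk RNA, fewer cells of a type and less RNA per cell cannot be told apart.

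The 10 genes differed widely in level. *Glul* had by far the highest mean over the 8 libraries, 149 RPKM, followed by *Lgr4* with 9.09 RPKM. *Rnf43*, *Nkd1*, *Tcf7*, *Tbx3* and *Axin2* lay between 1.26 and 2.56 RPKM, and *Znrf3*, *Lef1* and *Lgr5* had means of 0.833, 0.471 and 0.118 RPKM. The last 3 were under the mean of 1 RPKM required for the test, so that 7 of the 10 genes were tested and the other 3 are described by their values.

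**Figure D1:**
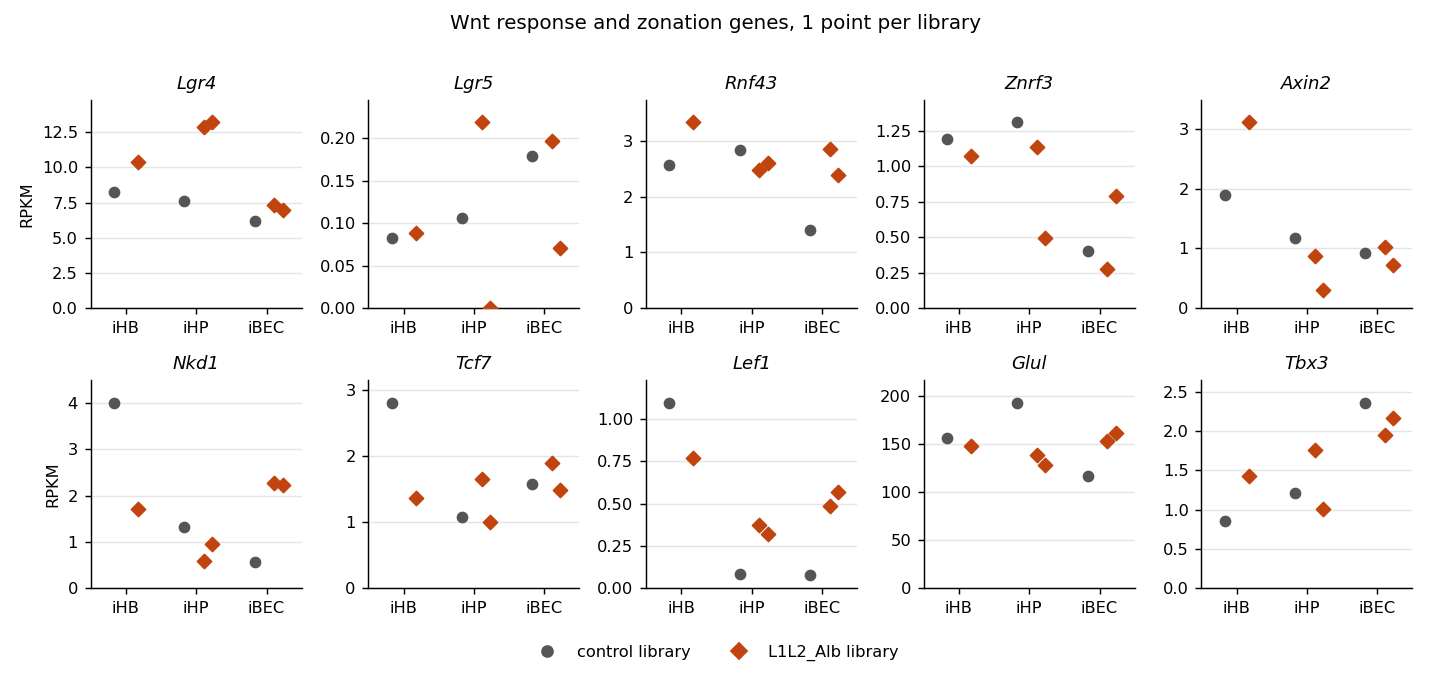
RPKM of each of the 10 genes (vertical axes, linear and starting at 0) in the 3 culture stages (horizontal axes), with 1 grey circle for each control library and 1 orange diamond for each library labelled L1L2_Alb. *Lgr4* lies above the control of its stage in all 5 libraries labelled L1L2_Alb, while *Nkd1* and *Glul* lie below it in iHPs and above it in iBECs.

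*Lgr4* encodes a receptor for R-spondins, secreted proteins that enhance the response of a cell to Wnt ligands. It was at 8.21, 7.64 and 6.18 RPKM in the controls of iHBs, iHPs and iBECs, while libraries labelled L1L2_Alb held 10.4 RPKM in iHBs, 12.9 and 13.2 RPKM in iHPs and 7.29 and 6.94 RPKM in iBECs. Every library labelled L1L2_Alb was thus above the control of its stage, and the gap was widest in iHPs, where the log2 differences were 0.68 and 0.72 (mean 0.70, SD 0.0235, n = 2 libraries). In iBECs they were 0.21 and 0.14, below the median of all genes in the same libraries, 0.22 and 0.26. Libraries of a pair shared their control, so the SD leaves out any spread between controls. The change fitted across stages was 0.40 (standard error 0.182, 95% interval -0.01 to 0.82), and *Lgr4* did not pass the test (adjusted p = 0.207 from limma).

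*Lgr4* is shown with a stretch of its promoter because it was the only one of the 10 genes higher in all 5 libraries labelled L1L2_Alb. Of all genes tested, 22.9% were so too, and *Lgr4* did not pass the test. TEAD factors were considered because YAP acts through them on DNA, and their action on *Lgr4* was not tested. Windows from 250 bases before to 50 bases after the start were held for 7 of the 10 genes (12 windows, RefSeq, GRCm38.p6) and searched on both strands for the TEAD core GGAATG. Read on the other strand, this core is CATTCC. The TEAD core was in 1 of the 12 windows and in 14.66% of all 32851 windows. In *Lgr4* its matches, in capitals, begin 178 and 158 bases before the start. The stretch shown lies at chr2:109917449-109917514 on the plus strand, upstream of the annotated start. A match is only a description of the letters, and binding was not measured.
Lgr4: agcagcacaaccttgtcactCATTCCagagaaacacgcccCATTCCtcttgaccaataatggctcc

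*Lgr5* encodes a related R-spondin receptor, known as a Wnt target and a stem cell marker in the gut, and was the lowest of the 10 genes. It had 11 and 12 reads in control and L1L2_Alb iHB, 14 reads in control iHP against 19 and 0 reads, and 28 reads in control iBEC against 24 and 8 reads, which is 0 to 0.219 RPKM. The 0 allows up to 0.0299 RPKM at a floor of 3 reads. The libraries labelled L1L2_Alb lay on both sides of their control in iHPs and in iBECs, and at this depth no difference between the genotypes was detectable. Poisson intervals and floors given here cover counting error only. Both ends of a fragment appear to have been counted as reads. Reads are then not independent, and these intervals are too narrow and the floors too low.

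*Rnf43* and *Znrf3* encode membrane ubiquitin ligases that remove Frizzled receptors from the cell surface and are opposed by R-spondins. *Rnf43* was at 2.58 RPKM in iHBs, 2.83 RPKM in iHPs and 1.40 RPKM in iBECs of the control, and libraries labelled L1L2_Alb had 3.34 RPKM, 2.48 and 2.60 RPKM, and 2.85 and 2.38 RPKM in these stages. Control iBEC was the lowest of the 8 libraries, and the other 7 lay within a narrow range. In iBECs the log2 differences of *Rnf43* were 0.68 and 0.49 (mean 0.59, SD 0.132, n = 2 libraries), or 2.03 and 1.70 times the control. The medians of all genes in these libraries were 0.22 and 0.26. Control iBEC had 201 reads of the gene, and its 95% Poisson interval of 1.22 to 1.61 RPKM lies below those of both libraries labelled L1L2_Alb iBEC. *Znrf3* was at 1.19, 1.31 and 0.401 RPKM in the controls of iHBs, iHPs and iBECs, and libraries labelled L1L2_Alb held 1.07 RPKM in iHBs, 1.14 and 0.491 RPKM in iHPs and 0.276 and 0.792 RPKM in iBECs. The libraries labelled L1L2_Alb iBEC thus lay on either side of their control, and L1L2_Alb iHP 2 held 66 reads against 132 in L1L2_Alb iHP 1, so that libraries of 1 condition differed widely in both stages.

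*Axin2* encodes a scaffold of the complex that degrades beta-catenin and is the feedback target most often used as a reporter of the pathway. It was at 1.90, 1.17 and 0.926 RPKM in the controls of iHBs, iHPs and iBECs, while libraries labelled L1L2_Alb held 3.11 RPKM in iHBs, 0.879 and 0.309 RPKM in iHPs and 1.03 and 0.719 RPKM in iBECs. The iHB libraries were the highest of each genotype. The log2 difference from the control was 0.50 in iHBs, with 380 reads against 230, and -0.21 and -0.73 in iHPs. In iBECs it was 0.07 and -0.16, so that these libraries lay on both sides of their control. Over the stages, 2 libraries labelled L1L2_Alb were higher and 3 lower, and the fitted change was -0.05 (standard error 0.257, 95% interval -0.64 to 0.54, adjusted p = 0.929 from limma).

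*Nkd1* encodes a cytoplasmic inhibitor that binds Dishevelled and is induced by the pathway it restrains. In iHBs the control held 4.01 RPKM and the library labelled L1L2_Alb 1.72 RPKM, and in iHPs the control held 1.32 RPKM and the others 0.585 and 0.967 RPKM. In iBECs the order was the other way round, with 0.575 RPKM in the control and 2.28 and 2.24 RPKM in the others. The log2 differences were -0.88 in iHBs and -0.55 and -0.24 in iHPs, whereas they were 1.06 and 1.04 in iBECs (mean 1.05, SD 0.0140, n = 2 libraries), or 3.97 and 3.89 times the control. In these iBEC libraries 8.29% and 7.44% of all genes tested were higher by more than 1 on this scale. The fitted change across the stages was -0.003 (95% interval -0.80 to 0.79, adjusted p = 0.998 from limma), a value near 0 over stages that went in opposite directions. Whether the effect of genotype differed between the stages was tested in limma on the 6 conditions, and *Nkd1* did not pass (moderated F = 6.74, adjusted p = 0.725, unadjusted p = 0.0223). That test had 2 residual degrees of freedom and called 0 genes (0% of those tested, and 5.46% at an unadjusted p under 0.05).

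*Tcf7* and *Lef1* encode nuclear partners of beta-catenin and are themselves targets of the pathway in many tissues. *Tcf7* was at 2.81 RPKM in iHBs, 1.09 RPKM in iHPs and 1.57 RPKM in iBECs of the control, and libraries labelled L1L2_Alb had 1.37 RPKM, 1.65 and 1.01 RPKM, and 1.90 and 1.48 RPKM in these stages. Control iHB stood above the other 7 libraries, and in iHPs and iBECs the libraries labelled L1L2_Alb lay on both sides of their control. *Lef1* was at 1.10, 0.0821 and 0.0764 RPKM in the controls of iHBs, iHPs and iBECs, while libraries labelled L1L2_Alb held 0.769 RPKM in iHBs, 0.372 and 0.321 RPKM in iHPs and 0.485 and 0.567 RPKM in iBECs. Both differentiated controls were thus near 0, and the libraries labelled L1L2_Alb lay between them and the iHB libraries.

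For *Lef1* each library labelled L1L2_Alb was at 0.703 times the control in iHBs, 4.54 and 3.91 times in iHPs and 6.35 and 7.43 times in iBECs. The controls behind these ratios rest on few reads, at most about 8 in control iHP and 9 in control iBEC against about 25 in both L1L2_Alb libraries of iHPs and 46 and 49 in both of iBECs. These are estimates from the length of the longest transcript, since whole reads could not be recovered for *Lef1*, *Nkd1* and *Tbx3*. Without the filter on low values, *Lef1* had a fitted genotype effect of 0.23 (standard error 0.133, adjusted p = 0.388 from limma). As *Tcf7* and *Lef1* are also expressed in T cells, 7 T cell markers were examined. *Cd3e* was at 0 in all 8 libraries, and the markers summed to 0.667 to 3.03 RPKM in the controls and 1.35 to 2.80 RPKM in the libraries labelled L1L2_Alb, with 1 to 5 of the 7 markers at 0.

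The promoter window of *Lef1* is shown because it was the only one of the 12 to hold the TCF/LEF core CTTTGA, which was in 16.0% of all windows. Read on the other strand, this core is TCAAAG. No match of 1 core overlapped with a match of the other. It belongs to an internal start of the gene, at chr3:131156094-131156199 on the plus strand of GRCm38.p6. The matches, in capitals, begin 180 and 120 bases before that start, and the table gives no value for single transcripts. None of the windows held for *Axin2* or *Nkd1* contained these letters, which says nothing about other parts of the genes.
Lef1: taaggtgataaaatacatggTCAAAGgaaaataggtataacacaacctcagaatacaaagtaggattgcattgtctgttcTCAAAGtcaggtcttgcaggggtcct

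*Glul* encodes glutamine synthetase, which fixes ammonia into glutamine and in the adult liver marks the hepatocytes next to the central vein. It was at 156 RPKM in iHBs, 193 RPKM in iHPs and 116 RPKM in iBECs of the control, and libraries labelled L1L2_Alb had 148 RPKM, 139 and 128 RPKM, and 153 and 161 RPKM in these stages. The controls held both the highest and the lowest of the 8 values, and the 5 libraries labelled L1L2_Alb lay between them. The log2 difference was -0.07 in iHBs, -0.47 and -0.58 in iHPs (mean -0.53, SD 0.0801, n = 2 libraries), and 0.39 and 0.47 in iBECs (mean 0.43, SD 0.0538, n = 2 libraries), where the medians of all genes were 0.22 and 0.26. With at least 7116 reads in each library, counting error is small beside these differences. The fitted change was -0.06 (95% interval -0.53 to 0.42, adjusted p = 0.900 from limma), and the test of a difference between the stages did not pass (unadjusted p = 0.231 from limma).

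*Tbx3* encodes a T-box transcription factor of hepatoblasts that is a Wnt target in liver cells. It was at 0.855, 1.21 and 2.36 RPKM in the controls of iHBs, iHPs and iBECs, while libraries labelled L1L2_Alb held 1.42 RPKM in iHBs, 1.76 and 1.00 RPKM in iHPs and 1.95 and 2.17 RPKM in iBECs. All 3 iBEC libraries were above the other 5. In iHPs the libraries labelled L1L2_Alb lay on both sides of the control, and the fitted change between the genotypes was 0.09 (95% interval -0.42 to 0.59, adjusted p = 0.847 from limma).

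**Figure D2:**
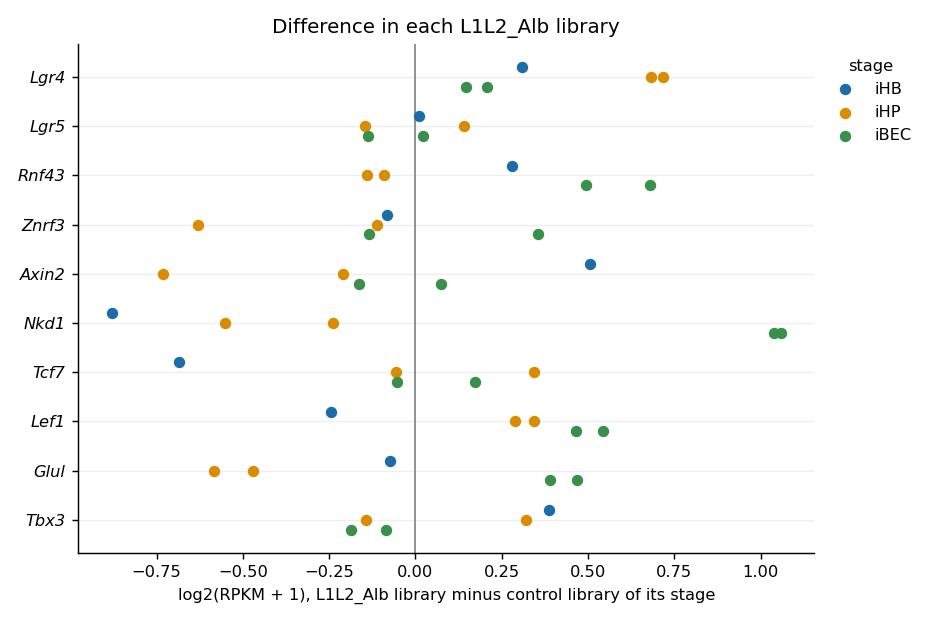
Difference in log2(RPKM + 1) between each library labelled L1L2_Alb and the control of its stage (horizontal axis) for the 10 genes (vertical axis), with 1 point per library coloured by stage. Points of *Nkd1* lie at -0.88 in iHBs and near 1.05 in iBECs, and points of *Glul* lie on opposite sides of 0 in iHPs and iBECs.

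Across the 3 stages, none of the 7 genes tested was called between the genotypes (0 called, and 0 at an unadjusted p under 0.05, from limma with stage as a block). This does not show that they were equal, since the 95% intervals are wide, as from -0.80 to 0.79 for *Nkd1*. Of all 13421 genes tested, 9.57% were called, 6.2% higher and 3.37% lower, and 26.3% had an unadjusted p under 0.05. The fitted changes ran from -0.11 for *Tcf7* (adjusted p = 0.817) to 0.40 for *Lgr4*, with a median of -0.003 against 0.06 over all genes tested. *Rnf43* had a fitted change of 0.25 (95% interval -0.24 to 0.74, adjusted p = 0.521 from limma), which was 0.054 without the iBEC stage and 0.45 without the iHP stage. By direction alone, 1 of the 10 genes was higher in all 5 libraries labelled L1L2_Alb, as were 22.9% of all genes tested, 0 were lower in all 5 (10.1% of all genes), and 9 were mixed.

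**Figure D3:**
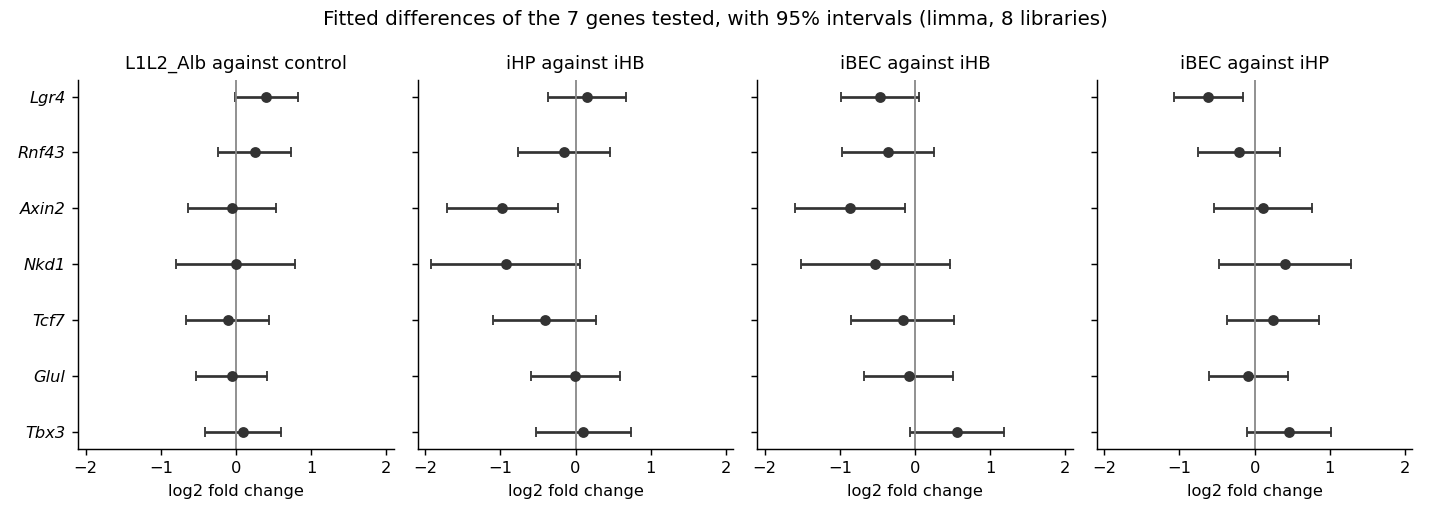
Fitted log2 fold changes (horizontal axes, points) with 95% intervals (bars) of the 7 genes tested (vertical axis), for genotype and for the 3 comparisons of stages, from limma on 8 libraries. The interval of *Lgr4* for genotype reaches just below 0, and those of *Axin2* against iHBs lie below 0 before adjustment for the number of genes.

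Among the controls, the stages were compared by 1 library each and without a test. *Lef1* and *Nkd1* were the genes with the lowest ratios to control iHB. *Lef1* was 13.3-fold lower in control iHP and 14.3-fold lower in control iBEC, and *Nkd1* 3.03-fold and 6.96-fold lower. On the log2 scale *Nkd1* was lower by more than 1 in both, as were 1.65% of all genes in control iHP and 14.9% in control iBEC, while 0 of the other 9 genes did in either. *Tcf7* was 2.59-fold and 1.79-fold lower, and *Axin2* 1.62-fold and 2.05-fold lower. *Znrf3* and *Rnf43* were near their iHB level in control iHP and 2.97-fold and 1.84-fold lower in control iBEC. Going the other way, *Tbx3* was 2.76-fold higher in control iBEC than in control iHB. *Glul* was 1.24 times its iHB level in control iHP and 0.747 times in control iBEC, and *Lgr4* 0.930 and 0.752 times.

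When the stages were compared with both genotypes in the fit, again none of the 7 genes was called. Of all genes, 0% were called between iHPs and iHBs, 5.72% between iBECs and iHBs and 4.12% between iBECs and iHPs. *Axin2* had the lowest p of the 7 against iHBs, with a log2 fold change of -0.97 in iHPs (standard error 0.321, adjusted p = 0.460 from limma) and -0.86 in iBECs (standard error 0.321, adjusted p = 0.153 from limma). At an unadjusted p under 0.05 it was the only one of the 7 in both comparisons, beside 8.63% and 25% of all genes. *Lgr4* had a log2 fold change of -0.62 in iBECs against iHPs (standard error 0.201, adjusted p = 0.126 from limma), the only one of the 7 with an unadjusted p under 0.05 there (22.2% of all genes). *Nkd1* differed by -0.93 between iHPs and iHBs (adjusted p = 0.602 from limma) and *Tbx3* by 0.56 between iBECs and iHBs (adjusted p = 0.241 from limma). The median of all genes was -0.25 in iBECs against iHBs and -0.003 after upper-quartile scaling, so that differences against iHBs are best read relative to it.

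In contrast, genes that release Wnt ligands and several of the ligands themselves differed between the genotypes. Porcupine (*Porcn*), which attaches a fatty acid to Wnt ligands in the endoplasmic reticulum, was at 23.2 RPKM in iHBs, 39.3 RPKM in iHPs and 17.9 RPKM in iBECs of the control, and libraries labelled L1L2_Alb had 361 RPKM, 359 and 377 RPKM, and 193 and 138 RPKM in these stages. The 5 libraries labelled L1L2_Alb did not overlap with the 3 controls. How many of all genes lack such overlap was not counted, here or for the ligands and *Sfrp4* below. *Porcn* rose by 3.36 on the log2 scale in the fit (standard error 0.205, limma adjusted p = 3.08e-04) and was higher in 5 of 5 libraries. *Wls*, which carries the acylated ligands to the cell surface, was at 56.2, 31.1 and 28.4 RPKM in the controls of iHBs, iHPs and iBECs, while libraries labelled L1L2_Alb held 121 RPKM in iHBs, 99.2 and 165 RPKM in iHPs and 54.0 and 69.7 RPKM in iBECs. It rose by 1.42 (standard error 0.257, adjusted p = 0.0146 from limma), and lost its call without the iHB stage (adjusted p = 0.0592) or the iHP stage (0.0756). Both genes of Wnt secretion were thus called higher, as were 6.2% of all genes tested.

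Of 19 Wnt ligands, 9 were tested, and 3 rose and 2 fell, beside 6.2% and 3.37% of all genes tested, with a median of 0.56 against 0.06 over all genes. *Wnt7a* was at 6.31 RPKM in iHBs, 3.60 RPKM in iHPs and 2.26 RPKM in iBECs of the control, and libraries labelled L1L2_Alb had 96.6 RPKM, 47.5 and 41.8 RPKM, and 6.48 and 12.9 RPKM in these stages. Its 5 values in libraries labelled L1L2_Alb were above all controls (log2 fold change 2.82, standard error 0.388, adjusted p = 0.00550 from limma). *Wnt7b* was at 2.31, 1.23 and 0.111 RPKM in the controls of iHBs, iHPs and iBECs, while libraries labelled L1L2_Alb held 6.33 RPKM in iHBs, 6.64 and 13.9 RPKM in iHPs and 9.62 and 9.40 RPKM in iBECs (2.31, adjusted p = 0.0104 from limma). These genes lost their calls only without the iHP stage, each with an adjusted p of 0.0916. *Wnt9a* rose by 1.36 (adjusted p = 0.0286 from limma), from 0.399 to 2.15 RPKM in the controls to 1.85 to 12.7 RPKM, with ranges that overlap, and was called in 6 of 14 alternative settings. Its adjusted p was 0.0525 without L1L2_Alb iHP 2, 0.0680 without L1L2_Alb iBEC 2, and 0.148, 0.0846 and 0.0628 without the iHB, iHP or iBEC stage.

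The ligand genes that fell were *Wnt16* and *Wnt4*. *Wnt16* was at 5.67 RPKM in iHBs, 18.7 RPKM in iHPs and 4.57 RPKM in iBECs of the control, and libraries labelled L1L2_Alb had 0.167 RPKM, 0.456 and 0.930 RPKM, and 0.997 and 1.74 RPKM in these stages. Its ranges did not overlap (log2 fold change -2.43, adjusted p = 0.0106 from limma), and the call was lost without the iHB stage (adjusted p = 0.0622) or the iHP stage (0.0923). *Wnt4*, known from kidney and gonad development, was at 21.6 to 29.0 RPKM in the controls and at 4.19 to 22.3 RPKM in the libraries labelled L1L2_Alb. It fell by 1.46 (limma adjusted p = 0.0356), was lower in 5 of 5 libraries and kept its call in 7 of 15 alternative settings. Its adjusted p was 0.0605 and 0.0577 without L1L2_Alb iHP 1 or 2, 0.0757 without L1L2_Alb iBEC 2, and 0.169 and 0.233 without the iHB or iHP stage. Of the 13 secreted inhibitors, 6 were tested, 5 with estimates above 0, and their median was 0.88 against 0.06 over all genes tested. At an unadjusted p under 0.05 in limma there were 4, beside 26.3% of all genes, and 1 was called and rose. This was *Sfrp4*, a soluble decoy receptor, with 4.08, 2.93 and 0.171 RPKM in the controls of iHBs, iHPs and iBECs. The libraries labelled L1L2_Alb held 37.6 RPKM, 23.6 and 33.6 RPKM, and 7.65 and 10.9 RPKM in these stages, all above every control (2.98, standard error 0.207, adjusted p = 5.63e-04 from limma). *Porcn* and *Sfrp4* kept their calls in all 15 alternative settings.

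**Figure D4:**
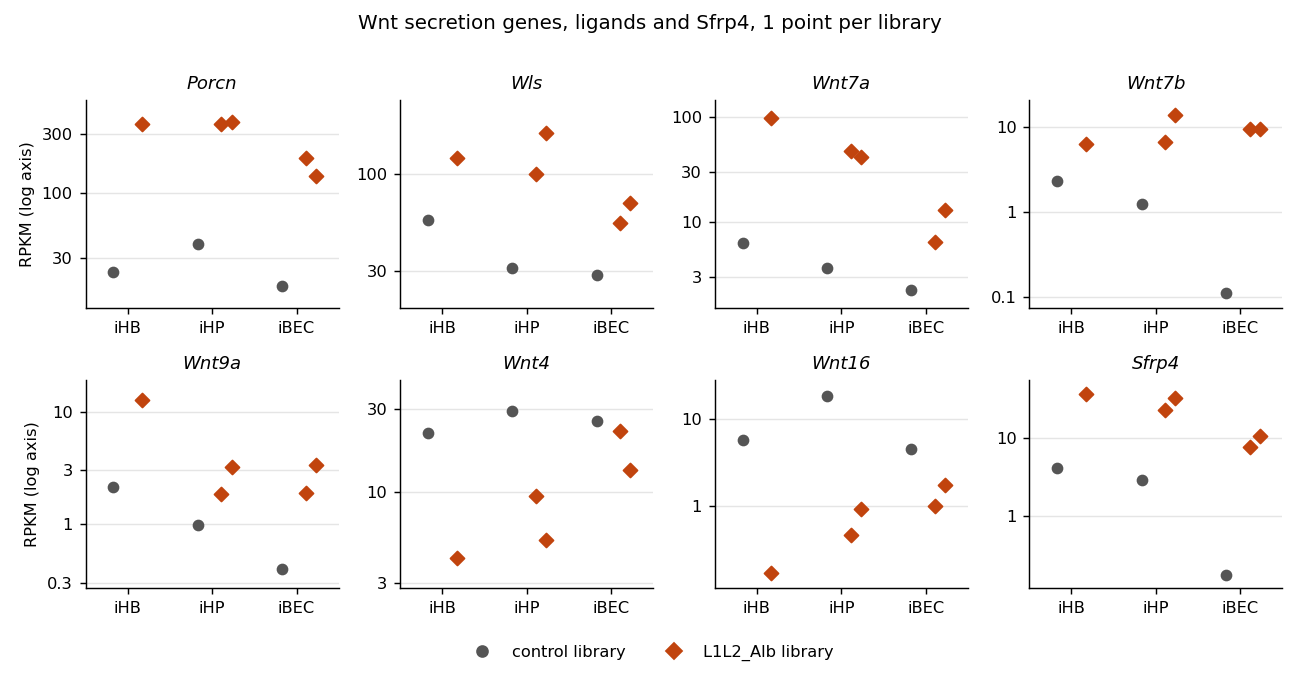
RPKM on log axes of the genes of Wnt secretion, the Wnt ligands and the secreted inhibitor that passed the test, by culture stage, with grey circles for control libraries and orange diamonds for libraries labelled L1L2_Alb. *Porcn*, *Wls*, *Wnt7a*, *Wnt7b*, *Wnt9a* and *Sfrp4* lie above the control of their stage in all 5 libraries, and *Wnt4* and *Wnt16* below it.

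Genes that act between the ligands and the 10 genes were not called, where 9.57% of all genes were. Of 16 Wnt receptors 12 were tested and 0 called, 7 with estimates above 0 and 5 below, and the most abundant, *Ryk*, a receptor-like kinase, had an estimate of 0.15 (adjusted p = 0.674 from limma). Of 12 genes of beta-catenin, its degradation complex and regulators of either, 11 were tested and 0 called. Beta-catenin itself (*Ctnnb1*) was at 147 to 264 RPKM in the controls and at 121 to 252 RPKM in the libraries labelled L1L2_Alb, ranges that overlap (-0.04, adjusted p = 0.924 from limma). Of 10 TCF partners 9 were tested and 0 called, 3 with estimates above 0 and 6 below, with a median of -0.22. The most abundant, *Tle4*, a corepressor, was at 0.89 (adjusted p = 0.135 from limma, higher in 5 of 5). Across these lists, 0 genes of the receptors, 0 of the list with beta-catenin and 3 of the TCF partners had an unadjusted p under 0.05, beside 26.3% of all genes tested. Of 4 R-spondins, the ligands of *Lgr4* and *Lgr5*, only *Rspo3* was tested (-0.19, adjusted p = 0.789 from limma). Of 9 other Wnt targets 5 were tested and 1 was called, *Sox4*, a transcription factor of progenitor cells, which fell from 21.8 to 37.9 RPKM in the controls to 7.48 to 14.0 RPKM (-1.35, adjusted p = 0.0138 from limma). The call of *Sox4* was lost without the iHB stage (0.0881) or the iHP stage (0.126), while *Ccnd1*, the gene of cyclin D1, was higher in 5 of 5 libraries and did not pass (0.89, adjusted p = 0.0630 from limma).

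Genes of the hepatocyte zones were set beside *Glul*. Of 16 further pericentral genes 8 were tested and 0 called, with a median of -0.31. At an unadjusted p under 0.05 in limma there were 2 of them, beside 26.3% of all genes tested. The most abundant, *Oat*, of ornithine metabolism, was at 47.9 to 52.8 RPKM in the controls and 51.2 to 95.2 RPKM in the libraries labelled L1L2_Alb (0.35, adjusted p = 0.383 from limma). Of 17 periportal genes 14 were tested and 4 fell, beside 3.37% of all genes tested, with a median of -0.98. The hepatocyte markers tested had a median of -1.33, so a lower median was not particular to periportal genes. *Fbp1*, of gluconeogenesis, was at 10.7, 34.9 and 289 RPKM in the controls of iHBs, iHPs and iBECs, while libraries labelled L1L2_Alb held 1.32 RPKM in iHBs, 6.86 and 3.87 RPKM in iHPs and 33.3 and 92.9 RPKM in iBECs. Each library labelled L1L2_Alb was thus well below the control of its stage, although the ranges of the genotypes overlap across stages (-2.42, standard error 0.330, adjusted p = 0.00537 from limma). *G6pc* (-2.50, adjusted p = 0.0202), which releases glucose, and *Ctsc* (-1.29, adjusted p = 0.0351), a lysosomal protease, fell as well, while the urea cycle gene *Arg1* was higher in 4 of 5 libraries without a call (0.67, adjusted p = 0.259 from limma). Without the iHP stage *Fbp1*, *G6pc* and *Ctsc* lost their calls, with an adjusted p of 0.0752 for *Fbp1*, 0.160 for *G6pc* and 0.0768 for *Ctsc*. Without the iHB stage it was 0.103 for *G6pc* and 0.145 for *Ctsc*, and without the iBEC stage 0.0663 for *Ctsc*. Leaving out a single library, *Ctsc* lost its call without L1L2_Alb iBEC 1 or 2 (0.0579 and 0.0551).

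Markers of other cells moved in part with the genotype. Of 8 mesenchymal markers all were tested, 7 had estimates below 0 without a call and *Vim* rose, and they summed to 2405 to 3836 RPKM in the controls and 1722 to 3461 RPKM in the libraries labelled L1L2_Alb. Of 7 endothelial markers 3 were tested and 0 called (summed 8.21 to 24.1 RPKM against 3.01 to 22.1 RPKM), and of 7 haematopoietic markers measured 5 were tested and 0 called (948 to 1985 RPKM against 540 to 2375 RPKM). Such sums follow the most abundant markers. The median fitted changes were -1.01 for mesenchymal, -0.26 for endothelial and -0.39 for haematopoietic markers, against 0.06 over all genes tested. Of 7 hepatocyte markers tested 4 fell, and of 6 BEC markers 2 rose, *Krt7* and *Krt19*, and 2 fell, among them *Spp1*. Of all genes tested, 6.2% were called higher and 3.37% lower. The part of these cells in the values of the Wnt genes was not tested.

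Genes whose level varied most like that of *Axin2* over the 8 libraries were *Arrdc2* (Pearson r = 0.944 of log2 values), *Mir1198* (0.936) and *Nrp2* (0.933). For *Glul* they were *Sftpd* (0.943), *Mrpl35* (0.940) and *Hspa1l* (0.933). These were the highest of 13421 values over 8 libraries that share genotype and stage, and are given as a description. Among the 7 genes tested, the highest correlation was that of *Nkd1* with *Tcf7* (0.625), followed by *Rnf43* with *Glul* (0.609), while *Axin2* and *Nkd1*, both feedback inhibitors, had an r of 0.434.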

How the data were processed

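The 8 TruSeq RNA libraries were sequenced on a HiSeq instrument. The authors deposited 1 table of RPKM, a unit inferred from the values, because genes of known length changed in whole reads. The submitters' processing notes name Bowtie 0.12.2 and the build mm8; the counting method is not given in the sources used here. Of 23471 rows, 4 with repeated symbols were left out. Library reads were recovered from the value of 1 read (shared by at least 50 genes), and whole reads for 7 of the 10 genes within a tolerance of 0.002.

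log2(RPKM + 1) was fitted for genes averaging 1 RPKM or more with limma 3.58.1 in R 4.3.3 (eBayes with trend, stage plus genotype). p-values are two-sided and adjusted by the Benjamini-Hochberg method over all genes tested, with a threshold of 0.05. No count model was used. The procedure was tested on simulated data. Tables were made with Python 3.11.15, pandas 2.3.3 and scipy 1.17.1. Alternatives were a pseudocount of 0.1, upper-quartile scaling, quantile normalization, no filter, a minimum mean of 5 RPKM, no trend in eBayes, leaving out libraries or stages, averaging libraries of a condition, and a replicate block. Values of some listed genes are not reported here. The 10 genes and the gene lists were chosen with earlier results of these data known. Named besides them are list genes called between the genotypes, the most abundant gene of each Wnt and zonation list, and the 3 genes most correlated with *Axin2* and *Glul*.

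The iHP and iBEC libraries labelled L1L2_Alb differed within a condition by more than counting noise (chi-square per degree of freedom 176 and 146). No coordinates of the table are given. Promoter windows came from RefSeq (GRCm38.p6).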

Additional observations from a re-analysis of the deposited data

Results flagged for a closer look

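*Lef1* differed in direction between the stages. Its log2(RPKM + 1) in the libraries labelled L1L2_Alb minus the control of the stage was -0.24 in iHBs, whereas the mean was 0.32 in iHPs and 0.50 in iBECs, with both libraries higher in each. This difference between the stages was not tested, because the mean of *Lef1* was under 1 RPKM. The iHB value rests on 1 library of each genotype, and the controls of iHPs and iBECs had at most about 8 and 9 reads of the gene.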

How the results depend on the processing

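The count of the 10 genes called stayed at 0 in each of the 5 comparisons under every alternative run. Uncalled estimates near 0 changed sign, and the cause was not tested. For genotype, *Axin2* became 0.029 with quantile normalization, 0.19 without the iHP stage and 0.12 with the replicate block. *Nkd1* became 0.069 with a pseudocount of 0.1, 0.14 with quantile normalization, 0.33 without iHBs and 0.22 without iHPs. *Tcf7* became 0.0018 with quantile normalization and 0.10 without iHBs, *Glul* 0.21 without iHPs, *Tbx3* -0.024 without iHBs, *Ryk* -0.010 with quantile normalization and *Rspo3* 0.17 with the replicate block. When single libraries were left out, the range was -0.087 to 0.070 for *Axin2*, -0.11 to 0.083 for *Nkd1*, -0.12 to 0.0083 for *Glul* and -0.12 to 0.038 for *Ctnnb1*. Between iHPs and iHBs, *Glul* became 0.13 with upper-quartile scaling, 0.071 with quantile normalization, 0.044 without iBECs, 0.077 with averaged libraries and 0.0017 with the replicate block, and *Rnf43* 0.062 with quantile normalization. With single libraries left out, *Glul* ranged from 0.0043 to 0.10 and *Tbx3* from -0.011 to 0.22. Between iBECs and iHBs, *Glul* became 0.20 and 0.11 with upper-quartile scaling and quantile normalization, and *Tcf7* 0.017 with the former. Between iBECs and iHPs, *Glul* became 0.070 and 0.038 with those scalings and *Axin2* -0.14 with the latter, in a range of -0.11 to 0.18 with single libraries left out. *Lgr4* kept its sign for genotype, from 0.23 to 0.53. Of all genes called between the genotypes, 64.8% were higher as deposited, against 51.6% with upper-quartile scaling and 52.8% with quantile normalization. *Fbp1* was called in 14 settings, *G6pc* and *Ctsc* in 11 and 9 of 15, and *Tle4* gained a call with averaged libraries (adjusted p = 0.0414). The deviations of same-numbered libraries of iHPs and iBECs had an r of -0.022 over 13421 genes. This cannot show whether such libraries share an origin, because the culture conditions differ. The replicate block called 0 of the 10 genes, and with it *Wnt4*, *Wnt9a* and *G6pc* were among the genes that lost their calls. The depth limits statements on *Lgr5* and on *Lef1* in the controls of iHPs and iBECs.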

Other observations

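Some genes of the zonation lists and some ligands also differed between iBECs and iHBs, in the limma fit with both genotypes. The genes named here were chosen after their values were seen. Of 13421 genes tested, 395 were higher and 373 lower in iBECs, and with upper-quartile scaling 505 were higher and 182 lower. Of the 8 pericentral genes tested 2 rose, *Gulo* of ascorbate synthesis (log2 fold change 2.32, adjusted p = 0.00568) and *Ahr*, a receptor for xenobiotics (1.27, adjusted p = 0.0295), and the median of the 8 was 1.18 against -0.25 over all genes. *Gulo* was at 20.5 RPKM in control iBEC and 1.80 RPKM in control iHB and kept its call in 13 of 13 alternative settings. *Ahr* kept it in 8 of 13 and lost it without L1L2_Alb iBEC 1 or 2 (adjusted p = 0.0789 and 0.0634). Of the 14 periportal genes tested 4 rose, with a median of 1.49. Among them were *Fbp1* (4.63, adjusted p = 0.00120), called in 13 of 13 settings, *Cyp2f2*, a cytochrome P450 gene (1.93, adjusted p = 0.0227), called in 6 of 12, and *Ctsc* (1.74, adjusted p = 0.0341), called in 10 of 13. Without L1L2_Alb iBEC 1 or 2 the adjusted p was 0.0570 and 0.0627 for *Cyp2f2* and 0.0666 and 0.0863 for *Ctsc*. Of the 7 hepatocyte markers tested, *Alb* (2.37, adjusted p = 0.0300), *Tat* (4.64, adjusted p = 0.0127) and *Hnf4a* (1.00, adjusted p = 0.0273) rose, and *Afp*, the fetal albumin-like protein, fell by 1.78 (adjusted p = 0.0312). *Tat* and *Hnf4a* were called in 12 of 13 alternative settings each, and *Alb* and *Afp* in 7 of 13 each.

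Of the 9 ligands tested 3 fell in iBECs against iHBs, beside 373 of all 13421 genes tested. *Wnt11* (-2.02, adjusted p = 0.00349) was called in 12 of 12 alternative settings. The secreted inhibitor *Sfrp4* (adjusted p = 0.00464) also fell, with 0.171 RPKM in control iBEC against 4.08 RPKM in control iHB, and was called in 13 of 13. *Wnt7a* (-2.41, adjusted p = 0.0272) was called in 6 of 13 and *Wnt9a* (-1.57, adjusted p = 0.0482) in 5 of 12. Both lost their calls with upper-quartile scaling (adjusted p = 0.0519 and 0.0789), with quantile normalization (0.0593 and 0.0720) and without L1L2_Alb iBEC 2 (0.0635 and 0.0741). *Wnt9a* also lost its call without L1L2_Alb iBEC 1 (0.121), and *Wnt7a* without the iHP stage (0.0538).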
